A study of Mus musculus with 20 samples.

Results

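The mouse miRNAs numbered miR-6896 to miR-7119 were described here as 1 block of entries on an Agilent mouse miRNA array, with their 5p and 3p arms set beside each other. The members were all mature miRNAs of that number range, of any letter or arm, that the scanner software marked as detected on at least 5 of the 20 arrays. The rule took 176 of the 410 entries in the range, out of 1881 mouse miRNAs on the array. Of these members 105 were 5p arms, of 206 on the array, and 71 were 3p arms, of 204. The members were thus chosen by the detection flag, so detection counts are given as a description, without a test.

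The study profiled total RNA of ascending aorta carrying an atherosclerotic lesion, from male mice of the double knockout genotype Apobtm2Sgy/Ldltm1Her, a background given for all groups and used as a model of high plasma cholesterol. The mice were on chow at week 0 (2 arrays), and on chow or a high fat diet at weeks 6, 18 and 30 (3 arrays in each of these 6 groups). The age field of the labels repeats these weeks, and the age of the mice is otherwise not given in the sources used here. The labels do not say whether the arrays of a group came from separate mice, and a p-value here reflects only the scatter of these arrays, part of which may be technical. In whole tissue, fewer cells of a type and less RNA per cell cannot be told apart.

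Mirtrons are short introns whose spliced and debranched lariat folds into a miRNA hairpin, which lets them enter the miRNA pathway without cleavage by Drosha, the nuclease that cuts ordinary primary miRNA transcripts. Dicer then cuts the hairpin into a 5p and a 3p arm, and either arm can be loaded into an Argonaute protein to act on target messenger RNAs through its seed, bases 2 to 8. Because the ends of a mirtron hairpin lie at or near splice sites, the 5p arm lies near the 5′ splice site and the 3p arm often runs through the pyrimidine tract to the AG of the 3′ splice site. A large part of the entries in this number range was added to the miRNA catalogue as mirtron candidates found in small RNA sequencing, and for most of them no function is known.

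Mature sequences were taken from RefSeq (GRCm38.p6), which held 155 of the 176 members and 362 of the 410 entries. Both arms of 5 hairpins are shown because the results turn on the contrast between their arms, written 5′ to 3′ with the seed in capitals.
miR-7047-5p: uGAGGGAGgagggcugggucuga
miR-7047-3p: uCACCCUCacccuuccuccuucc
miR-7058-5p: uAGAGGGGaggugaccguggaagu
miR-7058-3p: cUCGUUCCuuccuuucuuccag
miR-7082-5p: uACGGGCAggaggaggggagg
miR-7082-3p: gCCCCCCUugcugucugucucc
miR-7118-5p: uGGGGAAGgcgggagagggaac
miR-7118-3p: uAACUCUAcguccuccuccaca
miR-7016-5p: cAGGGAGGggagcgagaguag
miR-7016-3p: aCCUGCCUccugcucuccccag

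Of the arms shown, miR-7058-3p lay at chr7:126367971-126367992 (minus strand) inside Lat, an adaptor of T cell receptor signalling, and miR-7082-3p at chr9:21075499-21075520 (minus strand) inside Raver1, an RNA-binding protein gene. The arm miR-7118-5p lay at chr15:89162882-89162903 (minus strand) inside Plxnb2, a semaphorin receptor gene, and miR-7016-5p at chr4:129684546-129684566 (minus strand) inside Tmem39b. All 155 members with a sequence lay inside the span of a protein-coding gene on either strand, and these were 121 different genes, compared with 56.6% of the other 5p and 57.4% of the other 3p mouse miRNAs in the table. Whether a member lay in an intron, an exon or a UTR was not determined here, because no gene structure of that build was used.

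The arms differed in base composition. Among 93 5p members with a sequence the median share of G was 47.8%, with quartiles of 41.7% and 52.4%, against 27.3% in 481 5p arms outside the range. Among 62 3p members the median share of pyrimidines (C and U) was 76.2%, with quartiles of 68.5% and 80.7%, against 54.5% in 495 3p arms outside the range. The 32 5p members with a sequence that were detected on all 20 arrays had a median G share of 53.3%, while the 89 5p entries of the range that missed the detection rule had 40.9%.

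The 3p sequences also carried the letters of the 3′ splice site at their end. Of the 62 3p members, 42 (67.7%) ended in AG, as did 98 of the 118 3p entries of the range that were not members (83.1%). Outside the range 52 of 495 3p arms did (10.5%), and 8 of the 93 5p members did (8.60%). Few 5p members began with GU, the first letters of an intron: 10 of 93 (10.8%), against 22 of 481 5p arms outside the range (4.57%). The letters GU and AG were searched at the ends of the mature sequence as printed, so a match or its absence describes only those ends.

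A pair of 3p members whose level changed in chow is shown with the AG at the 3′ end in capitals, to make the pyrimidine run before it visible.
miR-7017-3p: acccugcuccucucccuccAG
miR-7011-3p: ucugcuucccuccuccucuAG

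Seeds were mostly private to 1 member. The 155 sequences held 146 different seeds, and 8 seeds were shared, by 17 members that were all 5p arms. The seed GUGGGAG was shared by 3 members and GAGGGAG by 2, and these are shown because members with a common seed could pair with the same target sites.
miR-6922-5p: uGUGGGAGgggacuguagagagg
miR-6993-5p: aGUGGGAGaaacgggugucuguc
miR-7008-5p: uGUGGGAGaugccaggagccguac
miR-6965-5p: aGAGGGAGgcuauugggcaggaga
miR-7047-5p: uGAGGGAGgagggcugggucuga

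Detection differed within the GUGGGAG group: miR-6922-5p was detected on 5 arrays, miR-6993-5p on 14 and miR-7008-5p on 13. Both members with GAGGGAG were detected on 20. Each probe has its own brightness, so these counts do not compare the levels of the miRNAs. The miRNA miR-6993-5p was at the floor on both week 0 arrays and at 5.18, 5.04 and 4.84 on the chow week 6 arrays, on the log2 scale of the scaled intensity described in the next paragraph. On the same arrays miR-7008-5p was at the floor on both at week 0 and at the floor, the floor and 3.90 at week 6.

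Levels are given as log2 of the background-subtracted intensity after scaling of the arrays to a common 75th percentile. The percentile was taken over 192 miRNAs that were well above background on every one of the 20 arrays. Values under a floor of 2.505 were set to it and have no order among themselves. Each probe has its own brightness, so levels are compared between arrays and never between miRNAs. The files hold 215 probes for the 5p members and 146 for the 3p members. All probes of members with a known sequence, 191 for 5p and 128 for 3p, were complementary over their full length and ended at the 3′ end of the mature miRNA, and none of the targeted stretches occurred in another mature sequence of the table. The probes of the members were short, with a median of 14 bases for 5p and 15 for 3p, against 16 for the rest of the array.

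Several arrays need to be known before the results. On the 192 common miRNAs the SD of the log2 difference was 0.18 between replicates 2 and 3 of high fat week 30, 0.19 between replicate 3 of high fat week 18 and replicate 2 of high fat week 30, which belong to different groups, and 0.28 between replicates 1 and 2 of chow week 6, while its median over 17 pairs of the same group and slide was 0.95. Results are given again with the near-identical arrays of the same group averaged. The pair from different groups was kept as separate arrays in every setting. For 8 arrays the slide position in the description differed from that in the file header, and by the description replicate 1 of chow week 18 and replicate 1 of high fat week 18 would exchange diets. Between 316 and 742 miRNAs were well above background per array, with under 400 on replicate 3 of high fat week 6, replicate 1 of chow week 18, replicate 3 of high fat week 18 and replicate 1 of high fat week 30. The negative control spots of replicate 3 of high fat week 18 had an SD of 22.3 intensity units, against 2.09 to 2.53 on the other 19 arrays. Slide 1 held weeks 0 and 6, slide 2 chow weeks 18 and 30 with replicates 1 and 2 of high fat week 18, and slide 3 the remaining high fat arrays. The smooth muscle markers miR-143-3p and miR-145a-5p were well above background on every array.

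Detection separated the arms. A 5p member was detected on a median of 17 arrays and a 3p member on a median of 14. Of the 37 members detected on all 20 arrays, 36 were 5p arms and 1 was a 3p arm, miR-7047-3p. The number of 5p members detected ran from 52 to 104 per array and that of 3p members from 3 to 70.

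Few 3p members were detected on 6 arrays, on each of which at least 49.5% of the 5p members were still seen. At week 0, 14 and 10 3p members were detected beside 62 and 65 5p members. Replicate 3 of high fat week 6 showed 3 3p members beside 52 5p members, replicate 1 of chow week 18 showed 5 beside 62, replicate 1 of high fat week 18 showed 20 beside 104, and replicate 1 of high fat week 30 showed 8 beside 75. All other arrays showed 44 to 70 3p members. Exactly 14 arrays detected 24 members, of which 20 were 3p arms, and these 24 were marked on 1 of 24, 1 of 24, 0 of 24, 2 of 24, 7 of 24 and 2 of 24 on the 6 arrays just named, in that order.

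**Figure D1:**
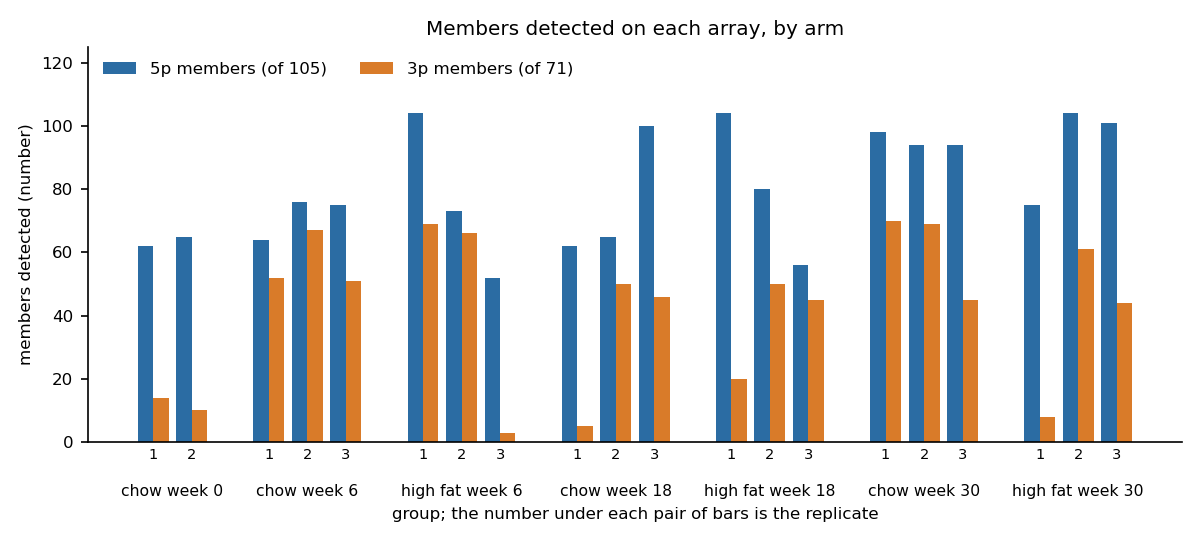
Number of members detected on each of the 20 arrays (vertical axis), with a blue bar for the 105 5p members and an orange bar for the 71 3p members, by group and replicate. The orange bars fall to between 3 and 20 on 6 arrays and reach 44 to 70 on the other arrays, while the blue bars stay between 52 and 104.

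The rule's threshold cut through a continuous range. In the number range 171 entries were never detected, 63 were detected on 1 to 4 arrays, 8 of them on exactly 4, and 10 members were detected on exactly 5. Just inside, miR-6922-5p reached at most 4.17, miR-6952-5p 4.77, miR-6953-3p 4.92 and miR-6959-3p 4.65. Just outside, miR-6899-5p reached at most 3.49, miR-6910-5p 3.87, miR-6950-5p 4.18 and miR-6953-5p 2.77. Members at the GC extremes were not sorted by detection alone: miR-7045-5p and miR-7045-3p shared the highest GC content, 76.2%, and were detected on 20 and 7 arrays, while miR-7061-5p had the lowest, 31.8%, and was detected on 13.

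The hairpins were mostly represented by 1 arm. Of 207 hairpins in the range, 203 had both arms on the array, and 136 had at least 1 member: 65 with only the 5p arm, 31 with only the 3p arm and 40 with both. In 16 of the 40, both arms passed the filter for testing, which asked for a miRNA to be well above background on every array of at least 1 group. In all, 114 of the 176 members were tested (78 5p and 36 3p), among 609 miRNAs of the whole array, and 62 were not.

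The 8 steadily detected members named here were all 5p arms, and each varied over the 20 arrays by more than 1 log2 unit. The lowest, median and highest level of miR-6898-5p, from a hairpin inside Kansl3, were 7.56, 8.51 and 9.18. For miR-6937-5p they were 7.58, 8.56 and 10.98, and for miR-6939-5p 3.62, 5.53 and 7.58. The other 5 (miR-6908-5p, miR-6912-5p, miR-6931-5p, miR-6944-5p and miR-6965-5p) had medians between 5.56 and 6.89.

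Both arms of miR-7047 could be followed on every array. The 5p arm was at 9.17 and 9.38 at week 0, at 10.24, 9.68 and 9.61 in chow week 6, and at 9.94, 9.23 and 10.89 in high fat week 6. In chow week 18 it was at 12.36, 9.91 and 8.68, in high fat week 18 at 10.73, 9.37 and 9.46, in chow week 30 at 9.75, 9.58 and 9.25, and in high fat week 30 at 11.26, 9.53 and 9.58. The groups of the 5p arm after week 0 overlapped, and its highest level was on replicate 1 of chow week 18.

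The 3p arm of the same hairpin was at 5.47 and 4.64 at week 0, at 8.87, 8.52 and 8.64 in chow week 6, and at 7.96, 8.66 and 5.45 in high fat week 6. In chow week 18 it was at 5.43, 7.84 and 6.83, in high fat week 18 at 3.77, 7.49 and 7.68, in chow week 30 at 7.98, 8.46 and 7.16, and in high fat week 30 at 5.87, 7.04 and 6.94. Its 6 lowest levels were those of the arrays on which few 3p members were detected, where its 5p arm was between 9.17 and 12.36. On replicate 1 of chow week 18 the arms stood at opposite ends of their ranges within the diet: the 5p arm was at the highest of its chow levels and the 3p arm at the lowest after week 0.

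Other hairpins showed the same contrast of arms. The arm miR-7118-5p was at 11.11, 7.07 and 8.95 in chow week 18, where miR-7118-3p was at the floor, 5.25 and 3.93. The arm miR-7082-5p was at 8.999, 6.88 and 7.17 in that group, where miR-7082-3p was at the floor, 7.04 and 5.74. The arm miR-7058-5p was at 8.39, the floor and 4.87, where miR-7058-3p was at 3.38, 5.96 and 5.15. In each of these hairpins the 5p arm was highest on replicate 1, the array on which the 3p arm was lowest.

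**Figure D2:**
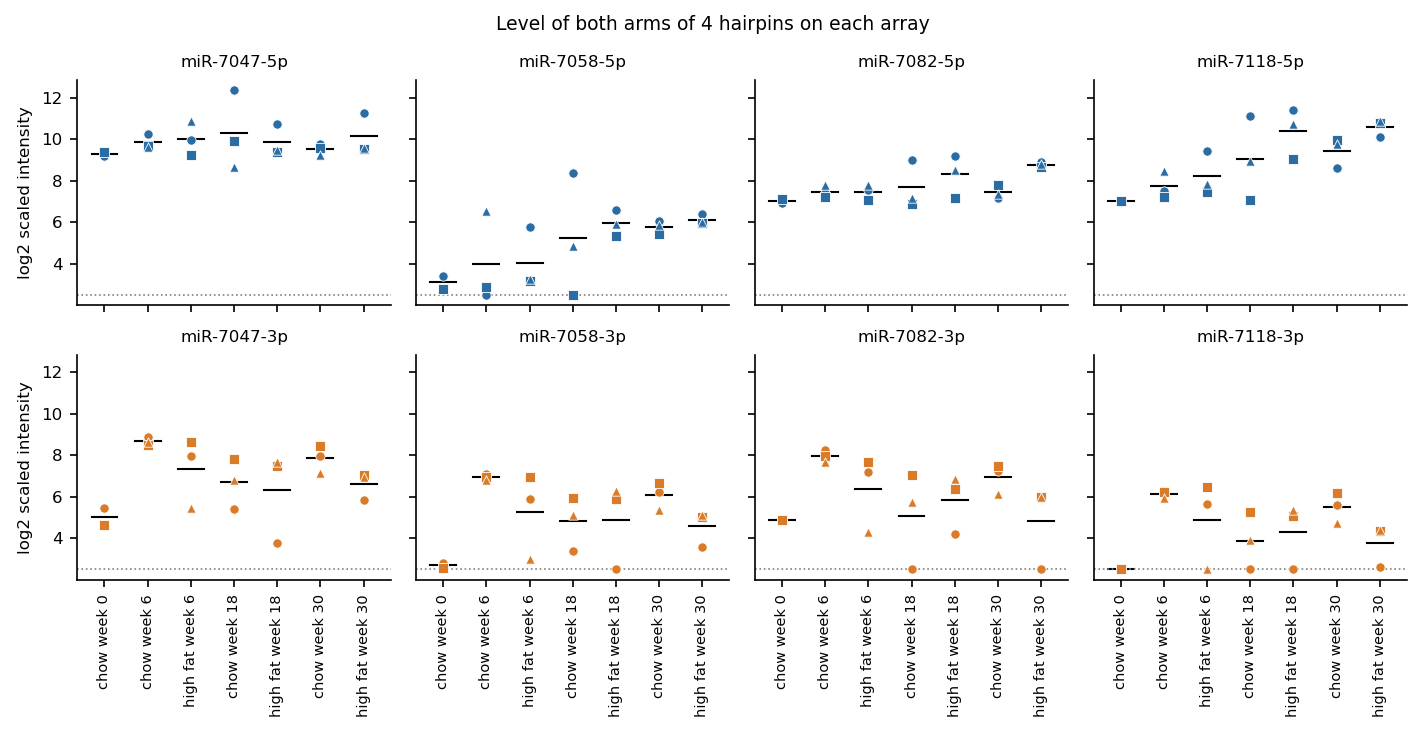
Log2 scaled intensity (vertical axis) of the 5p arm (blue, upper row) and the 3p arm (orange, lower row) of miR-7047, miR-7058, miR-7082 and miR-7118 in the 7 groups. Circles, squares and triangles are replicates 1, 2 and 3, horizontal lines are group means and the dotted line is the floor; the lowest 3p levels are those of the week 0 arrays and of single replicates of later groups, such as replicate 1 of chow week 18, where all 4 5p arms are at the top of their group.

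In chow, 29 of the 36 tested 3p members were called higher at week 6 than at week 0. The arm miR-7058-3p shows this: the week 0 arrays were at 2.81 and 2.59 and the week 6 arrays at 7.12, 6.95 and 6.84, and the groups did not overlap. It was not well above background on either week 0 array, so the rise was at least 19.3-fold (log2 difference 4.27, SE 1.098, limma adjusted p = 0.0228). For miR-7118-3p both week 0 arrays were at the floor and the week 6 arrays at 6.26, 6.21 and 5.96, a rise of at least 12.5-fold (limma adjusted p = 0.0289). The arm miR-7047-3p, which was measured at both times, rose by 3.62 on the log2 scale (SE 1.04, limma adjusted p = 0.0289), and miR-7017-3p, from inside the actin regulator gene Wasf2, by 3.72 (SE 0.92, limma adjusted p = 0.0183). The arm miR-7013-3p rose by at least 11.6-fold, from 3.38 and 2.56 to 6.58, 6.67 and 6.29.

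In this comparison limma called 22% of all 609 tested miRNAs at an adjusted p under 0.05, all 134 of them higher at week 6. Among them were 37 of the 114 tested members. By arm these were 29 of 36 3p members and 8 of 78 5p members. The median difference was 2.88 for the tested 3p members and 0.58 for the tested 5p members, beside 0.68 for all tested miRNAs. Of the 37, 27 were not well above background on any week 0 array, with folds of at least 3.47 to at least 19.3. A further limit is that 11 of the 37 passed the filter only through chow week 6 and so had to be higher there. All 36 tested 3p members had groups that did not overlap, and so had 48 of the 78 tested 5p members, against 65% of all tested miRNAs.

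The 5p members called were miR-6911-5p, miR-6958-5p, miR-6959-5p, miR-6971-5p, miR-6993-5p, miR-7030-5p, miR-7034-5p and miR-7038-5p, named because they were few and after their values were seen. Their median pyrimidine share was 38.1% over the 7 with a sequence, against 27.3% over 63 tested 5p members that were not called. For 3p members the medians were 77.27% over 25 called and 76.19% over 7 not called. On the 5p side of the hairpins above, the difference was 0.57 (SE 0.83) for miR-7047-5p, 0.72 (SE 0.93) for miR-7118-5p and 0.87 (SE 1.30) for miR-7058-5p, and none of them was called.

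The calls rested on few arrays. None of the members was called when either week 0 array was left out, and none without replicate 1 of chow week 6. Without replicate 2 of that group 1 was called, where 2.46% of all tested miRNAs were, and without replicate 3 it was 7, where 5.91% were. With the near-identical arrays averaged none was called, and none was called without scaling of the arrays. With the percentile taken over all miRNAs the median of the 5p members turned to -0.58 and that of all tested miRNAs to -0.56, and the 3p median stayed above 0 at 1.76. The leukocyte list (miR-142a-3p, miR-142a-5p, miR-150-5p and miR-223-3p, 4 of 4 well above background on all arrays of both groups) had a summed scaled intensity of 632 to 1936 at week 0 and 2517 to 3712 in chow week 6. The epithelial list (3 miRNAs) ran from 96.4 to 119 and from 346 to 1630, with miR-205-5p and miR-200c-3p not well above background on either week 0 array. The smooth muscle list was lower at week 6 without overlap, at 1738 to 2377 and then 1074 to 1430. So were the endothelial list (3355 to 5341 and 1889 to 2978), the adipose list (3318 to 5955 and 2199 to 2849) and the fibroblast list (708 to 831 and 496 to 582), while 3 lists overlapped. The part of these cells in the differences was not tested.

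In chow, 13 5p members and 3 3p members were called lower at week 18 than at week 6. All week 6 arrays were on slide 1 and all chow week 18 arrays on slide 2, so time and slide cannot be told apart in this step. The miRNA miR-6918-5p, from inside Nipsnap1, was at 8.13, 7.86 and 7.49 at week 6 and at the floor, 6.10 and 5.15 at week 18, so the groups did not overlap. It fell by 3.24 on the log2 scale (SE 0.94, limma adjusted p = 0.0249). The miRNA miR-6904-5p, from inside the DNA repair gene Parp1, was at 7.62, 7.36 and 6.95 and then at the floor, 5.61 and 4.63, and it fell by 3.06 (SE 0.83, limma adjusted p = 0.0188). The miRNAs miR-7038-5p, miR-7030-5p and miR-6905-5p fell by 2.94, 2.93 and 2.89 (limma adjusted p = 0.0142, 0.0107 and 0.0224). In each of these 5 the lowest value was at the floor, on replicate 1 of chow week 18.

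Limma called 16 of the 114 tested members in this step, all lower at week 18 (13 5p and 3 3p). It called 15.1% of all tested miRNAs, and all 92 of these were lower as well. Of the tested 5p members 16.7% were called, near the share of all tested miRNAs. The 13 called 5p differences were opposite in sign to the 5p median of 0.42, and 56 of the 78 tested 5p members had a positive difference. The 3p median was -1.86, with 34 of 36 differences negative, and the median of all tested miRNAs was -0.18. The 10 called 5p members with a sequence had a median pyrimidine share of 37.8% and a median G share of 46.6%, while 60 that were not called had 27.3% and 50%. In the 3p arm both shares went the other way. The 2 called 3p members with a sequence had medians of 53.35% and 32.68%, and 30 that were not called had 77.27% and 11.78%. Of the 16, 5 passed the filter only through the brighter group. The 3p members called were miR-6902-3p, miR-7029-3p and miR-7051-3p, named because they were few.

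Leaving out 1 array moved this count strongly. Groups did not overlap for 50 members, against 35.5% of all tested miRNAs. The count of calls was 34 without replicate 2 of chow week 18, where 24.3% of all tested miRNAs were called. It was 2 without replicate 1, where 3.28% were. Without replicates 1 and 2 of chow week 6 it was 1 and 3, where 1.97% and 4.11% of all tested miRNAs were called. Without replicate 1 of chow week 18 the 5p median turned to -0.24, with 25 of 78 differences positive. The count was 6 with the groups by the description's slide position, where 7.38% of all tested miRNAs were called. It was 1 with the near-identical arrays averaged (1.81% of all) and 21 with replicate number as a block (17.6% of all). The summed leukocyte list was 380 to 802 in chow week 18, below every chow week 6 array, with 2 of its 4 miRNAs well above background on all 3 arrays. The red blood cell list (2 miRNAs) was at 5633 to 8692 in week 6 and at 421 to 5075 in week 18, and the smooth muscle list (2 miRNAs) at 1074 to 1430 and at 1519 to 2615. Neither overlapped, the other 6 lists did, and the part of these cells in the differences was not tested. Chow week 6 was in both steps, so the rise to it and the fall from it share 3 arrays: miR-7058-3p, for example, differed by 4.27 in the first step and by -2.14 (SE 0.98, limma adjusted p = 0.16) in the second.

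Between the diets at week 6, 1 member passed the test. The arm miR-7029-3p, for which the sequence table had no entry, was at 4.77, 4.66 and 4.38 in chow and at 2.58, 3.17 and the floor in high fat, and the groups did not overlap. Its level in high fat was lower by at least 2.97-fold (log2 difference -1.85, SE 0.37, limma adjusted p = 0.00806). It was the only called member of 114, where 1.48% of all tested miRNAs were called, and it passed the filter only through chow week 6. It was not called without replicate 1 or without replicate 2 of chow week 6, which were near-identical, nor with the spread taken from slide 1 alone. The median of the tested 3p members was -1.20, and it was -0.21 without replicate 3 of high fat week 6, while the 5p median was 0.00 and 0.03. Groups did not overlap for 12 members, against 15.9% of all tested miRNAs. Of the 9 marker lists the red blood cell one did not overlap, with 5633 to 8692 in chow and 1742 to 4436 in high fat, and its part was not tested.

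At week 18 the diets could not be told apart in any member. Limma called 0 of 114 members and 0% of all tested miRNAs, with 0 of the members at an unadjusted p under 0.05. Both arms had medians above 0, 0.55 for 5p and 0.58 for 3p, beside 0.28 for all tested miRNAs. The member with the smallest p was miR-7028-5p, at 4.96, 4.91 and 4.92 in chow and at 6.21, 5.18 and 6.28 in high fat, which did not overlap (limma adjusted p = 0.949). Groups did not overlap for 3 members, against 1.31% of all tested miRNAs. Without the 4 arrays on which few miRNAs were well above background the 5p median was 0.99 and the 3p median turned to -0.52, beside 0.18 for all tested miRNAs, again with 0 members called. Without replicate 3 of high fat week 18, the array with the noisy negative controls, the 3p median was -0.10 and the 5p median 0.47.

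At week 30 the median diet differences of the 5p and 3p members lay on opposite sides of 0, and no single member passed the test. The arm miR-7082-5p was at 7.19, 7.78 and 7.34 in chow and at 8.88, 8.68 and 8.78 in high fat, higher in every high fat array. The arm miR-7082-3p was at 7.27, 7.51 and 6.13 in chow and at the floor, 5.99 and 6.00 in high fat, lower in every high fat array. Their log2 differences were 1.34 (SE 0.55, limma adjusted p = 0.261) and -2.13 (SE 1.13, limma adjusted p = 0.316).

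The 5p members with the smallest p were miR-7016-5p, miR-7031-5p and miR-6954-5p. The miRNA miR-7031-5p, from inside Sh2b3, an adaptor gene that restrains cytokine signalling in blood cells, was at 5.20, 5.27 and 4.94 in chow and at 6.24, 6.33 and 6.58 in high fat. Its groups did not overlap, with a log2 difference of 1.25 (SE 0.43, limma adjusted p = 0.213). The miRNA miR-7016-5p was at 2.96, 3.36 and 2.85 in chow, where it was not well above background, and at 4.798, 4.66 and 4.99 in high fat, at least 3.38-fold higher (limma adjusted p = 0.213). The miRNA miR-6954-5p was at 3.23, 4.12 and 3.89 and at 5.51, 5.34 and 5.60 (limma adjusted p = 0.213).

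Limma called 0 of 114 members at week 30 and 0% of all tested miRNAs, with 17 members at an unadjusted p under 0.05. With only the 6 arrays of week 30 in the fit, 23 of the 114 members were called, where 18.1% of all tested miRNAs were. The median difference was 1.01 for 78 5p members, of which 63 were positive, and -1.23 for 36 3p members, of which 35 were negative, beside -0.19 for all tested miRNAs. The groups did not overlap for 51 5p members that were higher and 24 3p members that were lower in high fat. In either direction this held for 77 members, against 55.3% of all tested miRNAs. The share of all tested miRNAs in each direction was not determined, so the counts by arm have no such background. With normexp background correction the 3p median turned to 0.13 beside 0.40 for all tested miRNAs, and the 5p median was 0.79. With the near-identical arrays averaged the medians were 1.04 and -1.31, and without replicate 1 of high fat week 30 they were 0.82 and -0.95.

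Diet and slide were the same split at week 30, with all chow arrays on slide 2 and all high fat arrays on slide 3. Only high fat week 18 lay on both slides, with replicate 3 alone on slide 3, the array with the noisy negative controls. A slide term therefore rested on that array set against the rest of its group. With slide as a block the medians were 0.94 for 5p and -3.17 for 3p, again with 0 members called. No slide held both diets of week 30, so slide and diet cannot be told apart here, and that fit does not separate them. Of 9 marker lists the epithelial one was lower in high fat without overlap, with summed levels of 71.8 to 395 in chow and 39.6 to 47.3 in high fat, the other 8 overlapped, and their part was not tested.

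The 13 5p members called lower in chow from week 6 to week 18 had a median diet difference of -0.70 at week 30, in arrays that step did not use. Of the 13, 10 (76.9%) were lower in high fat, which is 66.7% of the 15 5p members lower there. The other 65 tested 5p members had a median of 1.06, and 60 of them were positive. The low values rested on replicate 1 of high fat week 30: without it the median of the 13 was 0.04, with 6 of 13 lower, and that of the other 65 was 0.90. For miR-6918-5p the week 30 levels were 6.59, 6.00 and 6.04 in chow and the floor, 6.23 and 5.92 in high fat, so the groups overlapped. The group was chosen for its fall in chow, the difference between it and the rest was not tested, and none of its members was called at week 30.

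Averaged over weeks 6, 18 and 30, the diet effect called 0 of 114 members with limma and 0% of all tested miRNAs, with 16 members at an unadjusted p under 0.05. The 5p median was 0.46 and the 3p median -0.65, beside -0.11 for all tested miRNAs. The smallest p values were those of miR-7031-5p (0.78, SE 0.25), miR-6898-5p (0.71, SE 0.24) and miR-7016-5p (0.98, SE 0.35), each with a limma adjusted p of 0.313. The moderated F test of a change of the diet effect over time called 0 of 114 members with limma, where 0.985% of all tested miRNAs were called, and 4 members had an unadjusted p under 0.05. The smallest was that of miR-7029-3p (limma adjusted p = 0.146).

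The remaining steps in time called no member. In high fat from week 0 to week 6, limma called 0 of 114 members and 0% of all tested miRNAs, with 12 members at an unadjusted p under 0.05, a 5p median of 0.62 and a 3p median of 1.71 beside 0.55 for all. Groups did not overlap for 24 members in that step, against 19.9% of all tested miRNAs. Without the 4 arrays on which few miRNAs were well above background, 39 of the 114 members were called in that step, where 20.2% of all tested miRNAs were. The week 0 arrays are those of the chow step as well: miR-7017-3p was at 3.82 and 2.93 at week 0, at 7.21, 7.02 and 7.05 in chow week 6 and at 6.35, 7.16 and 3.33 in high fat week 6. In that miRNA replicate 3 of high fat week 6 lay within the range of the week 0 arrays, replicate 2 within that of chow week 6 and replicate 1 between them.

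In chow from week 18 to week 30 limma called 0 of 114 members and 0% of all tested miRNAs, with 1 member at an unadjusted p under 0.05, and the 3p median was 1.14 beside 0.02 for 5p. Groups did not overlap for 2 members, against 3.28% of all tested miRNAs. In high fat from week 6 to week 18, a step that also went from slide 1 to slides 2 and 3, limma called 0 of 114 and 0% of all, with 15 members at an unadjusted p under 0.05, and from week 18 to week 30 limma called 0 of 114 and 0% of all, with 1. Groups did not overlap for 0 members in the first of these steps, against 1.15% of all tested miRNAs, and for 4 in the second, against 7.88%. The member with the smallest p from week 6 to week 18 in high fat was miR-7036a-5p, from inside Srrt, at 9.09, 5.96 and 5.88 and then at 12.17, 8.53 and 10.85, so the groups overlapped (log2 difference 3.54, SE 1.04, limma adjusted p = 0.466).

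**Figure D3:**
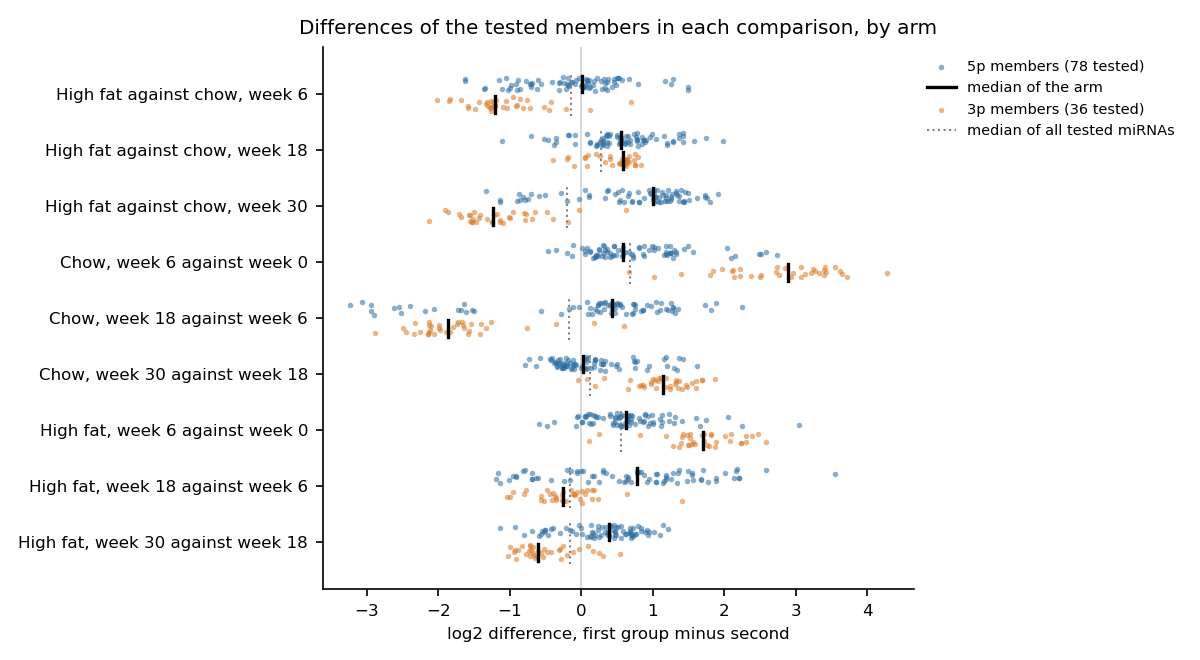
Log2 difference (horizontal axis) of each tested member in the 9 comparisons of 2 groups, with 78 5p members in blue and 36 3p members in orange. Black lines are the medians of the arm and dotted lines the median of all 609 tested miRNAs; at week 30 the medians are 1.01 for 5p and -1.23 for 3p, and in chow from week 0 to 6 they are 0.58 and 2.88.

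Like differences were also seen outside the number range, in miRNAs of like base composition. These were chosen by base share alone and not split by arm, and they include the arms of miR-877 and miR-1224 described below. Among tested miRNAs outside the range, 112 had at least 40% G and 21 at least 70% pyrimidines. At week 30 the G-rich ones had a median diet difference of 0.99 (96 of 112 positive) and the pyrimidine-rich ones of -1.22 (19 of 21 negative), close to 1.01 and -1.23 in the 5p and 3p members. In chow from week 0 to week 6 their medians were 0.41 and 2.67, and 14 of the 21 pyrimidine-rich ones were called, beside 0.58 and 2.88 in the members. From week 6 to week 18 in chow the medians were 0.44 and -1.67, beside 0.42 and -1.86. This comparison was added after the data were seen, and whether base composition accounts for the differences was not tested.

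**Figure D4:**
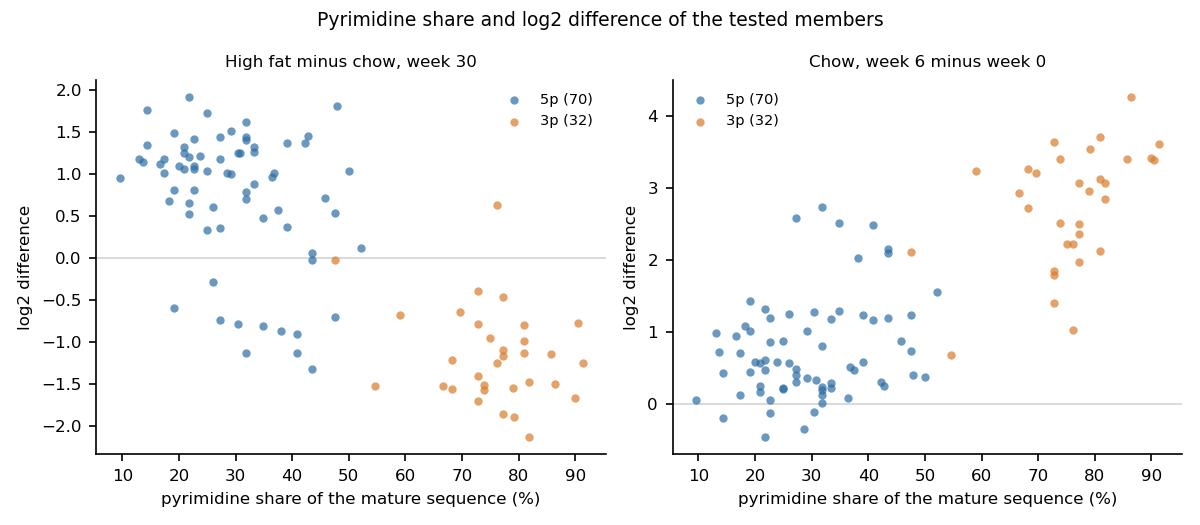
Share of pyrimidines in the mature sequence (horizontal axis, percent) against the log2 difference (vertical axis) of the tested members with a known sequence, 70 5p in blue and 32 3p in orange, for high fat minus chow at week 30 (left) and chow week 6 minus week 0 (right). The 3p arms lie to the right, mostly below 0 at week 30 and all above 0 in chow from week 0 to 6; some 5p arms lie below 0 at week 30.

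The arms of 1 hairpin share the gene and the sample, so the change of the 5p arm minus the change of the 3p arm was tested for 80 hairpins of the array with both arms tested, 16 of them in the range. This test too was added after the data were seen. At week 30 the difference between the diets was positive in 16 of 16 hairpins of the range, from 1.39 for miR-6975 to 3.48 for miR-7082, with a median of 2.17, and 37 of 64 other hairpins were positive, with a median of 0.48. Limma called 0 of the 16 and 0% of the 80, with 4 of the 16 at an unadjusted p under 0.05, and the smallest adjusted p was 0.167 for miR-6998 (3.15, SE 0.95). In miR-6998, from inside Fubp3, the 5p arm was at 3.14, 4.49 and 3.997 in chow and 5.37, 5.47 and 5.65 in high fat, and the 3p arm at 3.74, 5.14 and 3.59 and then at the floor, 2.77 and 2.60, where it was not well above background.

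In chow from week 0 to week 6 the difference was negative in 16 of 16 hairpins of the range, with a median of -2.40, where limma called 0 of the 16 and 1.25% of the 80, and 3 of the 16 had an unadjusted p under 0.05. Several of the 3p arms, among them miR-7058-3p and miR-7118-3p, were not well above background on any week 0 array. Their differences therefore depend on the floor or on levels near it. Among the 3p arms miR-7070-3p passed the filter only through chow week 6, which favours a higher level there. The hairpins share the same arrays, here and at week 30, so their signs are not separate observations. From week 6 to week 18 in chow it was positive in 15 of 16, with a median of 2.34, where limma called 0 of the 16 and 1.25% of the 80, and 7 of the 16 had an unadjusted p under 0.05. That median was 1.29 without replicate 1 of chow week 18, with 0 of the 16 at an unadjusted p under 0.05, and 3.31 without replicate 2, and time and slide cannot be told apart in it. At week 18 the diets differed by a median of -0.09, with 7 of 16 positive, and by 1.79 with 16 of 16 positive without the 4 arrays on which few miRNAs were well above background. The median at week 30 was 2.42 with the near-identical arrays averaged, 1.78 without those 4 arrays and 4.15 with slide as a block. The slide term of that fit again rested on replicate 3 of high fat week 18.

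**Figure D5:**
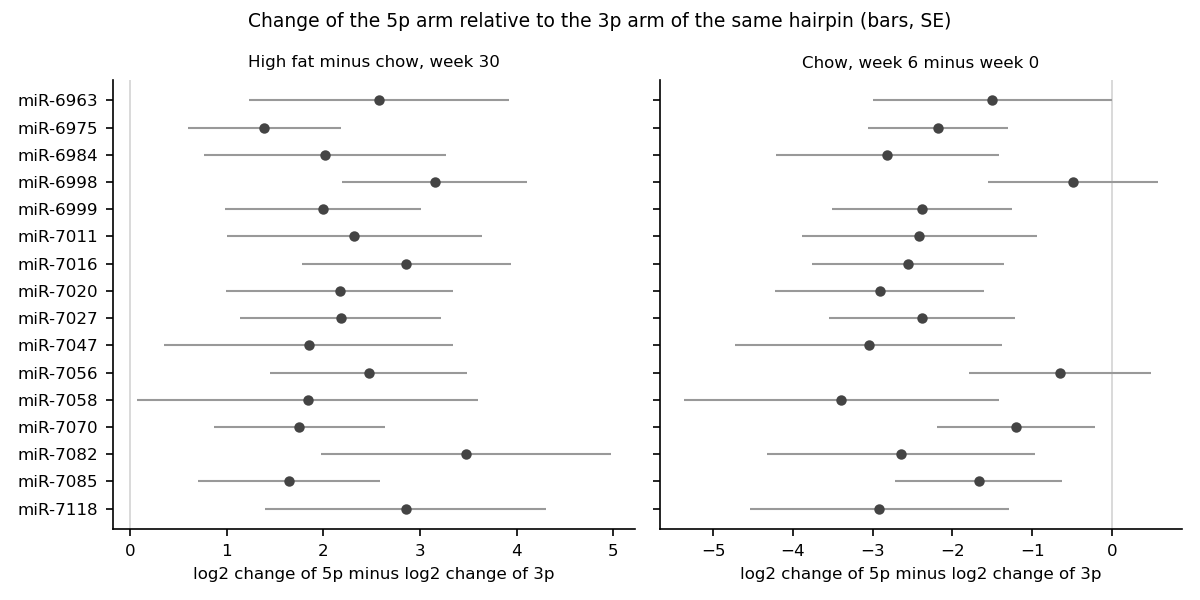
Log2 change of the 5p arm minus log2 change of the 3p arm (horizontal axis) for the 16 hairpins of the range with both arms tested, for high fat minus chow at week 30 (left) and chow week 6 minus week 0 (right). Points are estimates and bars their SE, and several 3p arms were not well above background on any week 0 array. All 16 are above 0 at week 30 and below 0 in chow from week 0 to 6, and none passes the adjusted threshold.

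Mirtrons outside the number range were looked at from a short list of 3 hairpins, miR-877 (inside Abcf1), miR-1224 (inside Vwa5b2) and miR-702 (inside Plod3). The arms of the first pair of hairpins are shown with the seed in capitals because they carry the same G-rich 5p and pyrimidine-rich 3p arms as the members.
miR-877-5p: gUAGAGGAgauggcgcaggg
miR-877-3p: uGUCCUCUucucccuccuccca
miR-1224-5p: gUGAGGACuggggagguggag
miR-1224-3p: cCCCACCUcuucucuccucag

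Of these, miR-1224-5p and miR-877-3p were detected on 20 arrays, miR-877-5p on 19, miR-1224-3p on 14 and both arms of miR-702 on 0. In chow the 3p arm of miR-877 was at 5.73 and 4.76 at week 0 and at 8.89, 8.51 and 8.60 at week 6, a rise of 3.42 (SE 1.03, limma adjusted p = 0.0317), and the groups did not overlap. The 3p arm of miR-1224 was at the floor on both week 0 arrays and at 5.47, 5.40 and 5.29 at week 6, and it was called as well (limma adjusted p = 0.0321). Their 5p arms differed by -0.52 (SE 0.56) and 0.41 (SE 1.03) and were not called. At week 30 the 5p arms of miR-877 and miR-1224 differed between the diets by 0.82 (SE 0.50) and 1.31 (SE 0.92) and the 3p arms by -1.22 (SE 0.92) and -1.22 (SE 0.78), and none of the 4 was called.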

How the data were processed

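Per the labels, total RNA of 20 aorta samples was labelled with Cy3 and hybridised to 1-colour Agilent mouse miRNA arrays. The deposited values were spot intensities on a linear scale, which the authors extracted with Agilent's Feature Extraction software (11.5.1 in the submitters' processing notes), with background subtracted per the file headers. The deposited detection flag per miRNA is a 0 or 1 score of that software. The members and lists used here were chosen with earlier results of these data known.

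Control and outlier spots were left out, the spots of a probe and then the probes of a miRNA were averaged. Arrays were scaled to a common 75th percentile (192 miRNAs found on every array), values were floored at 2.505 (log2), and limma 3.58.1 (R 4.3.3, lmFit and eBayes, 2-sided) was fitted to 20 arrays in 7 groups (13 residual degrees of freedom), with Benjamini-Hochberg adjustment over 609 tested miRNAs at 0.05. A miRNA was tested if 1 of its probes had a share of 0.5 or more of its usable spots well above background on every array of 1 group. Folds marked "at least" are lower bounds, used where no array of the dimmer group had the miRNA well above background. They set the brighter mean against the lowest signal above background on each dim array, the miRNA's own signal or the floor, whichever was highest. The scripts were tested on simulated data.

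Named members were, by rule: the 8 detected on most arrays (lowest numbers first), per comparison up to 5 called in each direction or the 3 with the smallest p, hairpins with both arms, entries at 4 and 5 arrays, the GC extremes, and the other mirtrons. Exceptions are stated beside the name. The number of arrays per group (2 or 3) limits the precision. Alternatives were each array left out, other scalings, floors and filters, normexp background correction, the software's gene signal, slide and replicate number as blocks, single slides, the groups of a comparison alone, near-identical arrays averaged, members detected on at least 10 arrays, and leaving out the 4 arrays with few miRNAs detected. Over 57 pairs of arrays with the same replicate number, the correlation of deviations from the group means ran from -0.593 to 0.746. Its median was 0.02, and 24 pairs were over 0.1. Whether a shared replicate number marks related arrays cannot be settled from these values. The position of 1 hairpin is not reported here.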

Additional observations from a re-analysis of the deposited data

How the results depend on the processing

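The count of called members depended on the setting in 6 of the comparisons and in 2 of the arm differences. In chow from week 0 to week 6 it was 37 in the setting reported and ran from 0 to 40 when single arrays were left out. It was 0 without scaling, with quantile normalization, over miRNAs detected on all 20 arrays and with near-identical arrays averaged. Percentages in brackets are the share of all tested miRNAs called in the same setting. The count was 1 with the percentile over all miRNAs (4.6%), 2 with normexp (5.75%) and 8 without the filter (3.24%). It was 20 with the software's gene signal (12.6%) and 24 with the floor lower by 1 (15.3%). In chow from week 6 to week 18 it was 16 and ran from 1 to 34 when single arrays were left out. It was 0 without scaling, with normexp, with all miRNAs in the percentile and over miRNAs detected on all 20 arrays. The count was 1 with near-identical arrays averaged (1.81%), 2 with quantile normalization (2.63%) and 9 with the software's gene signal (8.87%). By the description's slide position, a setting added after seeing the data, it was 6 (7.38%). For the diet at week 6 it was 1 and ran from 0 to 2 when single arrays were left out. It was 0 with normexp, without scaling, with all miRNAs in the percentile, with the floor lower by 1 and over miRNAs detected on all 20 arrays. It was also 0 on slide 1 alone, with the groups of the comparison alone, with near-identical arrays averaged and over members detected on at least 10 arrays. The count was 2 with the floor higher by 1 (3.61%) and without the filter (1.01%). From 0, the count rose to 23 (18.1%) for the diet at week 30 with the groups of the comparison alone. It rose to 39 (20.2%) in high fat from week 0 to week 6 without the 4 arrays with few miRNAs detected. For the F test of diet over time it rose to 2 (0.797%) without the filter. For the arm difference it rose from 0 to 2 of 16 in chow from week 0 to week 6 without those 4 arrays. In that setting 14 of the 80 hairpins of the array were called. In chow from week 6 to week 18 it ran from 0 to 10 when single arrays were left out. It was 10 without replicate 2 of chow week 18, and the count over all hairpins there is not given here. The other 615 counts over comparisons and alternatives stayed within 1.5 times the reported one. Many of these reported counts were 0, for which this means only that they stayed at 0. No sign of a called member turned in any alternative. Why the counts moved was not tested. The setting over miRNAs detected on all 20 arrays asked for a level well above background on each, and no 3p member met this. The nearest was miR-7047-3p, with 19 arrays. With replicate number as a block the step from week 6 to week 18 in chow gave 21 calls, within 1.5 times of the count without the replicate block, and it moved no other count further than that. The arrays give no depth, and members near the floor have bounds only.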
